A study of Mus musculus with 8 samples.

Results

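The genes described here are 10 that carry out V(D)J recombination and the joining of its DNA ends, taken by symbol from the 27179 genes of the count table. They are *Rag1* and *Rag2*, which encode the cutting enzyme, *Dntt*, which encodes terminal deoxynucleotidyl transferase (TdT), and 7 genes of non-homologous end joining, *Xrcc5*, *Xrcc6*, *Prkdc*, *Dclre1c*, *Lig4*, *Xrcc4* and *Nhej1*. All 10 were found in the table and all 10 passed the filter on low counts. The rule names them by function and uses no measured value.

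RNA was sequenced from early large pre-B (early LPre-B) and small pre-B (sPre-B) cells sorted from mouse bone marrow, to ask how loss of UPF1, an RNA helicase of nonsense-mediated mRNA decay, bears on B cells that already carry an assembled heavy chain gene. Every mouse was *Upf1* Flox/Flox and carried the heavy chain knock-in *Igh* B1-8hi on 1 allele (B1-8hi/+), so that the controls share both. Mice labelled cKO also carried Cre at 1 allele of Mb1 (Mb1 Cre/+), the *Cd79a* locus that is active in the B lineage, and mice labelled Ctrl were Mb1 +/+. The mice were adult, age-matched and of both sexes on a C57BL/6 background, and cells negative for other lineages and for surface IgM were gated as CD43+, large and CD2- (early LPre-B) or CD43-low, small, CD25+ and CD2+ (sPre-B). Each of the 4 groups (Ctrl or cKO, early LPre-B or sPre-B) holds 2 libraries, replicates 1 and 2.

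In developing lymphocytes RAG1 and RAG2 together cut DNA beside the V, D and J segments of antigen receptor genes and leave hairpin-sealed coding ends. The Ku dimer (Ku70 and Ku80) binds these ends and recruits the kinase DNA-PKcs, Artemis opens the hairpins, TdT adds nucleotides without a template, and DNA ligase IV with XRCC4 and XLF seals the joint. In the B lineage the heavy chain locus is assembled first, up to the early LPre-B stage by the staging used here, and the light chain loci later, in small pre-B cells, with a phase of division after the heavy chain is made.

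Library totals lay between 68516857 and 160426338 counts, and levels are given as CPM, counts scaled to library size after TMM normalization, where 3 counts in a library correspond to 0.0187 to 0.0438 CPM by counting alone. The study's methods describe its plotted replicates as biologically independent, and those of each Ctrl group differed in sex (below), while the labels do not tie a library to an animal. The *P* values measure the spread between these libraries. Exons 4 to 6 of *Upf1*, which the floxed allele deletes, hold 511 of its 4618 exon bases (11.1%), so the gene-level *Upf1* count could not check the cKO label. It was not lower in the libraries labelled cKO (245 to 293 CPM) than in Ctrl (186 to 237 CPM). By edgeR's quasi-likelihood test it was higher under the cKO label in sPre-B cells (Log2FC 0.585, adjusted P = 0.00245). The difference in early LPre-B cells was not called (Log2FC 0.16, adjusted P = 0.251). *Cd79a* was lower under the cKO label in both stages, with 160 to 405 CPM against 543 to 1602 CPM. The sorted stages carried their gate markers, since the sum of *Il2ra* (CD25) and *Cd2* was 23.5 to 59.3 CPM in early LPre-B and 631 to 667 CPM in sPre-B libraries. *Spn* (CD43) had 184 to 198 CPM in Ctrl and 119.9 to 137.5 CPM in cKO early LPre-B libraries, and 47.5 to 61 CPM in sPre-B libraries. The sum of *Spn*, *Kit* and the division marker *Mki67*, which makes up most of it, was 4680 to 5130 CPM in Ctrl early LPre-B, 3030 to 3210 CPM in cKO early LPre-B and 409 to 812 CPM in sPre-B libraries. Markers of T cells summed to at most 1.89 CPM, of erythroid cells to at most 20.6 CPM and of plasmacytoid dendritic cells to at most 13.6 CPM in any library. The myeloid sum over 6 genes was mostly *Itgam*, and was 105 to 126 CPM in Ctrl early LPre-B, 276 to 322 CPM in Ctrl sPre-B, 45.2 to 50.7 CPM in cKO early LPre-B and 201 to 218 CPM in cKO sPre-B libraries, so that it moved with both stage and label. *Itgam* was also called in the interaction of stage and genotype by edgeR's quasi-likelihood test (0.90, adjusted P = 0.0472). So were *Fcer2a* of the mature B cell markers (3.24, adjusted P = 0.0269) and *Vpreb1* of the B-lineage markers (1.41, adjusted P = 0.0346), all upward. In 2 libraries, replicate 2 of both Ctrl groups, Y-linked transcripts exceeded *Xist*, and in the other 6 the reverse held, so that Ctrl groups mixed sexes and the groups labelled cKO did not. The part of the marker levels in the results below was not tested.

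From early LPre-B to sPre-B in Ctrl cells, the genes of cutting, hairpin opening and ligation mostly rose, while *Dntt*, *Xrcc5* and *Prkdc* fell. Of the 10 genes, 6 rose and 3 fell at an adjusted P under 0.05 in edgeR's quasi-likelihood test, beside 29.1% and 31.1% of the 17700 genes tested. Their median Log2FC was 0.41, against 0.02 over all genes tested. In cells labelled cKO, 6 rose and 2 fell between the same stages, beside 31.6% and 31.1% of all genes, with medians of 0.63 and 0.05. Both stage comparisons hold many changed genes, and a count of 8 or 9 in 10 stands beside 60.2% (Ctrl) and 62.6% (cKO) of all genes called in either direction.

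Between genotypes the 10 genes were mostly lower under the cKO label. In early LPre-B cells 6 were lower and 1 (*Prkdc*) was higher, beside 16.9% and 14.5% of all genes tested (31.3% in all), with a median Log2FC of -0.64 against -0.06 over all genes. In sPre-B cells 5 were lower and 1 (again *Prkdc*) was higher, beside 14.9% and 19.8% of all genes (34.7% in all), with medians of -0.46 and 0.01. The count of lower genes in sPre-B cells was 2 without replicate 1 of cKO sPre-B and 3 without replicate 1 of Ctrl sPre-B. The effect of the label differed between the stages for 4 genes, tested as the interaction of stage and genotype, which called 2.64% of all genes upward and 1.6% downward, 4.24% in all. It was shifted upward in sPre-B cells for *Rag1*, *Rag2* and *Dntt*, and downward for *Xrcc5*. These counts fell to 1 upward without any of 6 single libraries, and to 0 downward without either cKO early LPre-B library or replicate 1 of cKO sPre-B. Each Ctrl group enters both a stage comparison and a genotype comparison, and so does each group labelled cKO, so these comparisons are not independent of each other. The RNA is from bulk sorted cells, in which fewer cells of a type and less RNA per cell cannot be told apart.

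Markers of stage and lineage also differed between the early LPre-B groups. Of the 3 large pre-B markers 2 were lower under the cKO label, *Kit* (18.7 and 15.1 CPM in Ctrl, 3.84 and 2.08 CPM in cKO; Log2FC -2.51, adjusted P = 0.00387) and *Spn* (Log2FC -0.57, adjusted P = 0.0172). *Il2ra* was lower as well (Log2FC -1.02, adjusted P = 0.00586), while *Cd2* was not called (Log2FC 0.01, adjusted P = 0.968). Of the 7 B-lineage markers 2 were lower, *Cd79a* (Log2FC -1.77), whose locus carries Cre, and *Ptprc* (Log2FC -0.52), and 5 were not called. The sum over the 7 was 1710 to 1730 CPM against 2310 to 2640 CPM in Ctrl, and *Cd79a* alone had means of 174 CPM under the cKO label and 592 CPM in Ctrl. Of the 6 myeloid markers *Itgam* (Log2FC -1.37, adjusted P = 0.000331) and *Lyz2* (Log2FC -1.39, adjusted P = 0.0158) were lower. Of the 4 erythroid markers *Hbb-bs* was lower (Log2FC -1.61, adjusted P = 0.00785), with a sum over the 4 of 2.56 to 6.47 CPM against 10.1 to 10.9 CPM in Ctrl. The part of these markers in the early LPre-B differences of the 10 genes was not tested.

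**Figure D1:**
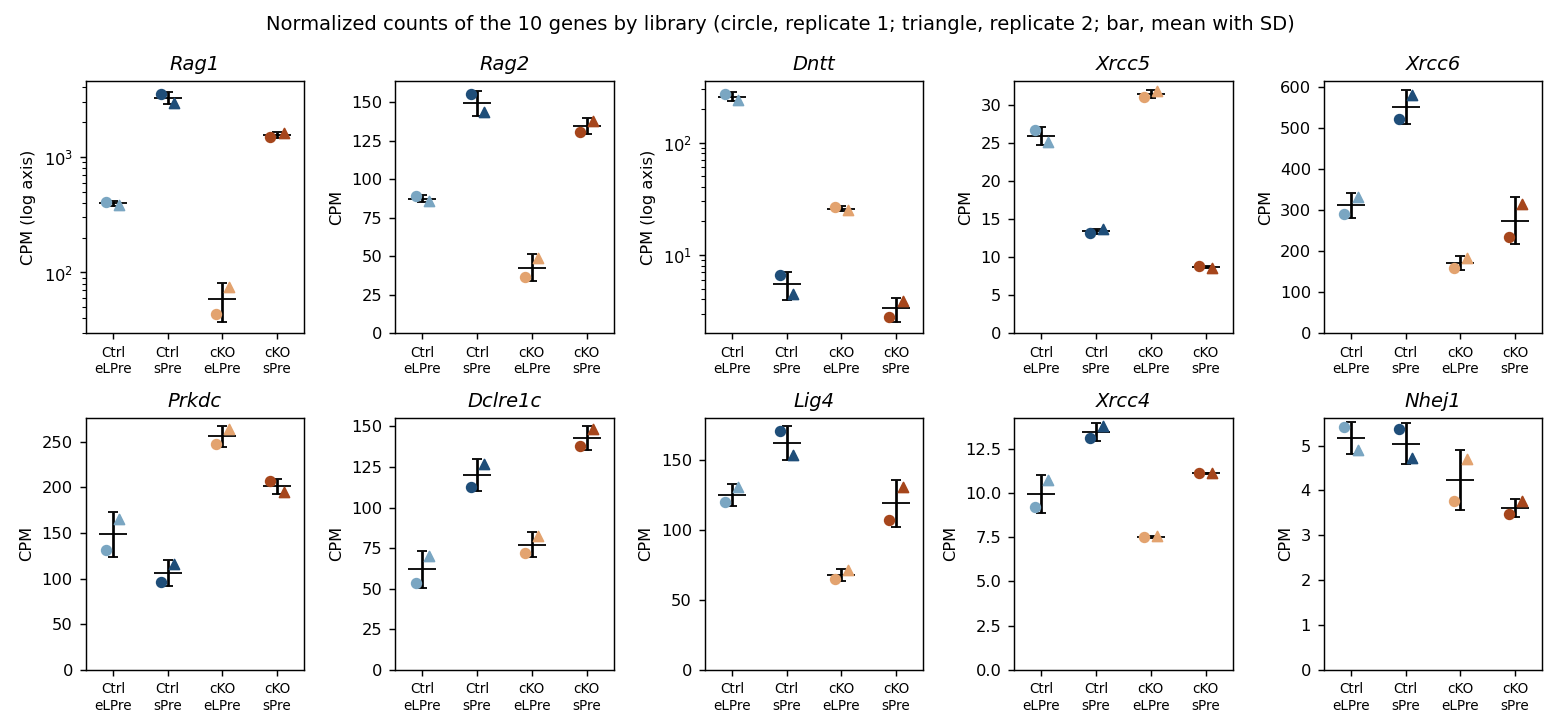
Normalized counts (CPM, y axis) of the 10 genes in each of the 8 libraries, with circles for replicate 1, triangles for replicate 2 and bars for the mean with SD of each group of 2 libraries. *Rag1* and *Dntt* are drawn on log axes; *Rag1* runs from 44.0 to 3508 CPM and *Dntt* from 2.78 to 272 CPM, the widest spans of the 10 genes.

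**Figure D2:**
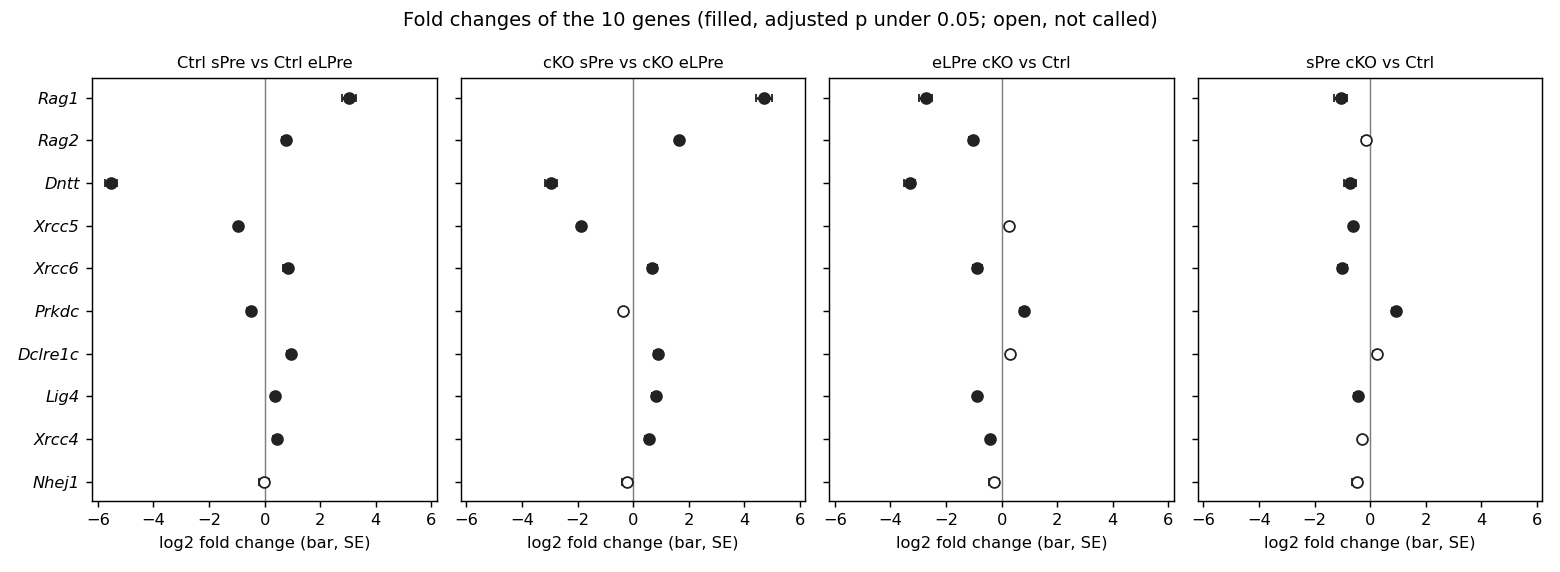
Log2 fold change (x axis, bar for SE) of each gene in the 4 comparisons between groups, with filled points at an adjusted p under 0.05. *Rag1* and *Dntt* lie farthest from 0 in both stage comparisons and in early LPre-B cells, in opposite directions between stages and both to the left under the cKO label.

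*Rag1* (Entrez 19373) lies on the minus strand of chromosome 2 at 101638252 to 101649532 in GRCm38.p6, and *Rag2* (Entrez 19374) on the plus strand at 101624712 to 101632528, so that the genes point at each other across 5723 bases. *Dntt* (Entrez 21673) lies on the plus strand of chromosome 19 at 41029275 to 41059525. Their RefSeq promoter windows (GRCm38.p6, 250 bases before to 50 after the start) are shown because these genes changed most or, for *Rag2*, share a locus with one that did. Capitals mark each E-box, CANNTG on either strand, the kind of site bound by E2A and related proteins, E2A being an activator in the B lineage.
Rag1 promoter, chr2:101649483-101649782, minus strand: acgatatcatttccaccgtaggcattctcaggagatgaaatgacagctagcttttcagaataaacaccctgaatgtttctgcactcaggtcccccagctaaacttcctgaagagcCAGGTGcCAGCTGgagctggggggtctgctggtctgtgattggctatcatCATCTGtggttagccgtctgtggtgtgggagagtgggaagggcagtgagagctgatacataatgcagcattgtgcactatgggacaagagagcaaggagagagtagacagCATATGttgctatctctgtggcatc
Rag2 promoter, chr2:101624462-101624761, plus strand: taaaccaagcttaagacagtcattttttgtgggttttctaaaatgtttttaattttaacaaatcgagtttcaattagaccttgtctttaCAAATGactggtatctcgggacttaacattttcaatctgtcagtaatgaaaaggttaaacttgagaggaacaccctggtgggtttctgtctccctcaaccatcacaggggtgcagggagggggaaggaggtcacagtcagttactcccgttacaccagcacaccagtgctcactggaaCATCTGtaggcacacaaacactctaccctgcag
Dntt promoter, chr19:41029025-41029324, plus strand: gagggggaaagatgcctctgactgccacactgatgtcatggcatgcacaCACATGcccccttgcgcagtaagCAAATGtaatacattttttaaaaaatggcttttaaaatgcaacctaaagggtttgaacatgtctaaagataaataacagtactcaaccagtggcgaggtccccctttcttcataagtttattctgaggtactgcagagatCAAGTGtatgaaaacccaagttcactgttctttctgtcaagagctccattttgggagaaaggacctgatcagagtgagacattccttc
The window of *Rag1* held 4 E-boxes, that of *Rag2* 2 and that of *Dntt* 3, and 72.3% of 32851 promoter windows held at least 1. The *Rag1* pair CAGGTG and CAGCTG stood at -135 and -128 from the start site, separated by a single base. The FOXO word GTAAACA, held by 3.65% of all windows, was in 0 of the 10 windows that matched 9 of the genes (*Lig4* has 2), and *Prkdc* had no entry. The E2F words TTTCCCGC and TTTGGCGC, held by 1.56% of all windows, were found in the window of *Xrcc6* only, as GCGGGAAA at -46. These matches describe the letters of the windows and are not evidence of binding.

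*Rag1*, which holds the active site of the recombinase, had 409 and 385 CPM in replicates 1 and 2 of Ctrl early LPre-B cells and 3508 and 2964 CPM in Ctrl sPre-B cells. In cells labelled cKO it had 44.0 and 74.95 CPM in early LPre-B and 1497 and 1612 CPM in sPre-B libraries. The 4 groups did not overlap, and their order from low to high was cKO early LPre-B, Ctrl early LPre-B, cKO sPre-B and Ctrl sPre-B. The rise with stage was 8.16-fold in Ctrl cells (397 ± 17.0 to 3236 ± 385 CPM, SD, n = 2; Log2FC 3.03, SE 0.25, adjusted P = 1.61e-05). Under the cKO label it was 26.1-fold (59.5 ± 21.9 to 1555 ± 81.7 CPM; Log2FC 4.71, SE 0.27, adjusted P = 3.33e-06). Early LPre-B cells labelled cKO thus held 6.67-fold less *Rag1* than Ctrl (Log2FC -2.74, SE 0.25, adjusted P = 0.000148). In sPre-B cells the gap was 2.08-fold (Log2FC -1.06, SE 0.24, adjusted P = 0.00914), and the call was lost without replicate 1 of the cKO sPre-B libraries (adjusted P = 0.0623; range over the alternatives 6.5e-07 to 0.0623). The interaction was 1.68 (SE 0.33, adjusted P = 0.0315), but its adjusted P rose to between 0.0684 and 0.0898 when any of 6 single libraries was left out and to 0.171, the highest, when replicate 2 of both Ctrl groups was left out (lowest over the alternatives 1.1e-06).

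*Rag2*, the partner that targets and regulates the cut, varied less. Ctrl libraries held 89.0 and 85.9 CPM in early LPre-B and 155 and 144 CPM in sPre-B cells. Libraries labelled cKO held 36.5 and 48.6 CPM in early LPre-B and 131 and 138 CPM in sPre-B cells. Both sPre-B groups lay above both early LPre-B groups, and the sPre-B groups lay close together without overlapping. *Rag2* rose 1.71-fold with stage in Ctrl cells (Log2FC 0.77, SE 0.13, adjusted P = 0.000871) and 3.16-fold under the cKO label (Log2FC 1.66, SE 0.13, adjusted P = 1.28e-05). It was 2.06-fold lower under the cKO label in early LPre-B cells (Log2FC -1.04, SE 0.13, adjusted P = 0.00068). No difference was called in sPre-B cells (Log2FC -0.15, SE 0.13, adjusted P = 0.394; range over the alternatives 0.191 to 0.687). Its interaction was 0.89 (SE 0.18, adjusted P = 0.0346), and the call was lost in the same fits as that of *Rag1*, with an adjusted P of 0.0836 to 0.111 without any of the 6 single libraries and 0.199 without both Ctrl replicates 2 (lowest over the alternatives 0.0013).

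The 2 *Rag* genes therefore did not keep a fixed proportion. Within a library the ratio of *Rag1* to *Rag2* counts was 4.59 and 4.48 in Ctrl early LPre-B, 22.6 and 20.6 in Ctrl sPre-B, 1.21 and 1.54 in cKO early LPre-B and 11.4 and 11.7 in cKO sPre-B cells. The ratio was higher in sPre-B than in early LPre-B cells of either label, and lower under the cKO label in either stage, with no overlap between groups. On the scale of CPM per kb of exon, *Rag1* exceeded *Rag2* in every library except those of early LPre-B cells labelled cKO, where the ratio was 0.625 and 0.798.

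The counts were made without strand, and *Iftap* spans both *Rag* genes, sharing 208 of the 3424 exon bases of *Rag2* (6.07%) and 80 of the 6608 of *Rag1* (1.21%). *Iftap* itself had 4.51 and 4.52 CPM in Ctrl early LPre-B, 13.7 and 14.0 in Ctrl sPre-B, 3.5 and 3.32 in cKO early LPre-B and 10.02 and 9.60 in cKO sPre-B libraries. The *Iftap* count was 5.07% to 9.78% of that of *Rag2*, and reads in the shared bases cannot be assigned to either gene. *Traf6*, the neighbouring gene for a signalling adaptor, also rose with stage, from 115 and 117 CPM to 285 and 272 CPM in Ctrl cells (Log2FC 1.26, adjusted P = 1.65e-05). *Commd9*, in the same region, was not called with stage (Log2FC -0.12, adjusted P = 0.439 in Ctrl cells). Between genotypes *Traf6* was lower under the cKO label in both stages (Log2FC -0.69 and -0.41), as was *Iftap* (-0.41 and -0.50), while *Commd9* was higher (Log2FC 0.94 and 1.04). *Prr5l*, the remaining neighbour examined, stayed under 3 CPM in every library and was called only with stage under the cKO label (Log2FC 2.60, adjusted P = 0.0157).

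**Figure D3:**
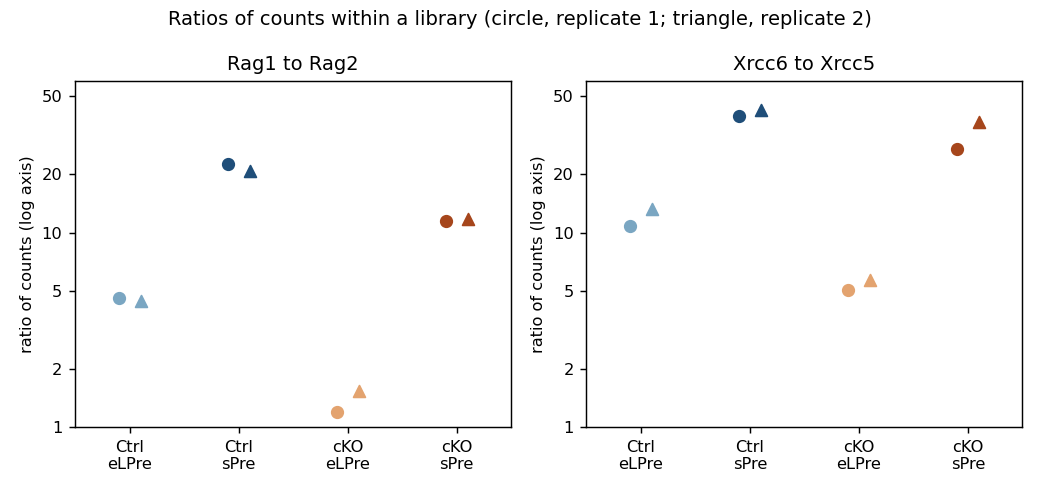
Ratio of counts within each library (log axis) for *Rag1* to *Rag2* and for *Xrcc6* to *Xrcc5*, with circles for replicate 1 and triangles for replicate 2 of the 4 groups. Both ratios are lowest in early LPre-B cells labelled cKO (1.21 to 1.54 and 5.10 to 5.74) and highest in Ctrl sPre-B cells (20.6 to 22.6 and 39.8 to 42.7).

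*Dntt*, whose product TdT is a template-independent polymerase used mainly at heavy chain joints, ran the other way with stage. Ctrl early LPre-B libraries held 272 and 239.9 CPM and Ctrl sPre-B libraries 6.60 and 4.44 CPM. Libraries labelled cKO held 26.8 and 24.8 CPM in early LPre-B and 2.78 and 3.89 CPM in sPre-B cells. Only the Ctrl early LPre-B group was high, and early LPre-B cells labelled cKO lay between it and the sPre-B groups. The fall with stage was 46.4-fold in Ctrl cells (256 ± 22.9 to 5.52 ± 1.53 CPM, SD, n = 2; Log2FC -5.53, SE 0.23, adjusted P = 9.08e-07). It was 7.74-fold under the cKO label (25.8 ± 1.41 to 3.33 ± 0.790 CPM; Log2FC -2.94, SE 0.21, adjusted P = 7.02e-06). *Dntt* was 9.92-fold lower under the cKO label in early LPre-B cells (Log2FC -3.31, SE 0.20, adjusted P = 3.79e-05), the largest genotype difference of the 10 genes. In sPre-B cells it was 1.65-fold lower (Log2FC -0.72, SE 0.21, adjusted P = 0.0253), and this call was lost without replicate 1 of either sPre-B group (adjusted P = 0.151 in both fits) and in the fit of only the 4 libraries compared (adjusted P = 0.0756; range over the alternatives 0.001 to 0.151). The interaction was 2.59 (SE 0.28, adjusted P = 0.00433) and was called under every alternative.

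Among the 3 genes of end binding, the Ku subunits moved apart from each other. *Xrcc5* (Entrez 22596, chromosome 1 at 72307417 to 72394953), which encodes Ku80, had 26.7 and 25.1 CPM in Ctrl early LPre-B and 13.1 and 13.6 CPM in Ctrl sPre-B cells. Under the cKO label it had 31.0 and 31.8 CPM in early LPre-B and 8.75 and 8.53 CPM in sPre-B cells. The groups labelled cKO were thus the highest and the lowest, outside both Ctrl groups. *Xrcc5* fell 1.94-fold with stage in Ctrl cells (Log2FC -0.95, SE 0.11, adjusted P = 8.27e-05) and 3.63-fold under the cKO label (Log2FC -1.86, SE 0.11, adjusted P = 3.39e-06). The genotype difference was not called in early LPre-B cells (Log2FC 0.28, SE 0.11, adjusted P = 0.0767), although both cKO libraries lay above both Ctrl libraries, and it was called in the fit of only the 4 libraries compared (adjusted P = 0.0348) and without replicate 2 of Ctrl sPre-B (adjusted P = 0.0481; range over the alternatives 0.0348 to 0.257). In sPre-B cells *Xrcc5* was 1.55-fold lower under the cKO label (Log2FC -0.63, SE 0.11, adjusted P = 0.00254). The interaction was -0.91 (SE 0.15, adjusted P = 0.0182), lost without either library of cKO early LPre-B (adjusted P = 0.082 and 0.0707), without replicate 1 of cKO sPre-B (0.057) and without both Ctrl replicates 2 (0.0798; range over the alternatives 1.2e-05 to 0.082).

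*Xrcc6* (Entrez 14375, chromosome 15 at 81987833 to 82040085), which encodes Ku70, had 290.2 and 333 CPM in Ctrl early LPre-B and 523 and 581 CPM in Ctrl sPre-B cells. Under the cKO label it had 158 and 182 CPM in early LPre-B and 234 and 315 CPM in sPre-B cells. *Xrcc6* rose 1.77-fold with stage in Ctrl cells (Log2FC 0.83, SE 0.16, adjusted P = 0.00192) and 1.61-fold under the cKO label (Log2FC 0.69, SE 0.16, adjusted P = 0.0048). Ctrl sPre-B cells were the high group and early LPre-B cells labelled cKO the low group, with overlap only between Ctrl early LPre-B and cKO sPre-B. *Xrcc6* was lower under the cKO label in both stages, 1.83-fold in early LPre-B (Log2FC -0.87, SE 0.16, adjusted P = 0.00415) and 2.01-fold in sPre-B cells (Log2FC -1.01, SE 0.16, adjusted P = 0.00178), with an interaction of -0.14 (SE 0.23, adjusted P = 0.79). The annotated span of *Desi1*, on the opposite strand, covers 72.6% of the exon bases of *Xrcc6*, but the exons of *Desi1* share 0 of them.

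Although Ku70 and Ku80 act as a dimer, the ratio of *Xrcc6* to *Xrcc5* counts was 10.9 and 13.3 in Ctrl early LPre-B, 39.8 and 42.7 in Ctrl sPre-B, 5.10 and 5.74 in cKO early LPre-B and 26.8 and 36.9 in cKO sPre-B libraries. As with the *Rag* pair, the ratio was higher in sPre-B cells and lower under the cKO label in each stage, without overlap between the groups. On the scale of CPM per kb, the ratio ran from 6.17 in early LPre-B cells labelled cKO to 51.6 in Ctrl sPre-B cells. These are ratios of RNA, and protein was not measured here.

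*Prkdc* (Entrez 19090, chromosome 16 at 15637444 to 15842239), which encodes the kinase DNA-PKcs, was the gene of the 10 that was called higher under the cKO label in both stages. Ctrl libraries held 131 and 166 CPM in early LPre-B and 96.0 and 116 CPM in sPre-B cells. Libraries labelled cKO held 248 and 264 CPM in early LPre-B and 207 and 195 CPM in sPre-B cells, all above the highest Ctrl library. *Prkdc* was 1.73-fold higher in early LPre-B (Log2FC 0.79, SE 0.14, adjusted P = 0.00344) and 1.89-fold higher in sPre-B cells (Log2FC 0.92, SE 0.14, adjusted P = 0.00137). Its fall with stage in Ctrl cells was 1.40-fold (Log2FC -0.48, SE 0.14, adjusted P = 0.0142) and lost its call without replicate 2 of Ctrl early LPre-B (adjusted P = 0.175) or replicate 1 of Ctrl sPre-B (0.155; range over the alternatives 0.000866 to 0.175). Under the cKO label the stage difference had a Log2FC of -0.35 (SE 0.14) and missed the threshold at an adjusted P of 0.0513, but passed it under 12 alternatives, DESeq2 (0.025) and the replicate block (0.0297) among them (range over all alternatives 0.00406 to 0.183).

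*Dclre1c* (Entrez 227525, chromosome 2 at 3424061 to 3474211), which encodes the hairpin-opening nuclease Artemis, changed with stage and was called for no genotype difference by edgeR's quasi-likelihood test. It had 53.8 and 69.9 CPM in Ctrl early LPre-B, 113 and 127 CPM in Ctrl sPre-B, 71.7 and 82.5 CPM in cKO early LPre-B and 138 and 148 CPM in cKO sPre-B libraries. The sPre-B libraries all lay above the early LPre-B libraries, and in each stage the cKO pair lay above the Ctrl pair. The rise was 1.94-fold in Ctrl cells (Log2FC 0.96, SE 0.14, adjusted P = 0.000349) and 1.85-fold under the cKO label (Log2FC 0.89, SE 0.14, adjusted P = 0.000491). The genotype Log2FC was 0.32 (SE 0.14, adjusted P = 0.107) in early LPre-B and 0.25 (SE 0.14, adjusted P = 0.179) in sPre-B cells. In early LPre-B cells it was called without replicate 2 of Ctrl early LPre-B (Log2FC 0.57, adjusted P = 0.0196) and with a replicate block (Log2FC 0.32, adjusted P = 0.0254), within a range of 0.0191 to 0.388 over the alternatives. *Suv39h2*, on the opposite strand, shares 357 of the 7969 exon bases of *Dclre1c* (4.48%), and reads there cannot be assigned to either gene.

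The 3 ligation genes came next in the pathway. *Lig4* (Entrez 319583, chromosome 8 at 9970020 to 9977680), which encodes DNA ligase IV, had 119.5 and 130.4 CPM in Ctrl early LPre-B, 171 and 154 CPM in Ctrl sPre-B, 64.5 and 71.0 CPM in cKO early LPre-B and 107 and 131 CPM in cKO sPre-B libraries. Early LPre-B cells labelled cKO were the low group. *Lig4* was 1.84-fold lower there than in Ctrl (Log2FC -0.88, SE 0.12, adjusted P = 0.000978) and 1.36-fold lower in sPre-B cells (Log2FC -0.45, SE 0.12, adjusted P = 0.0184), the latter lost without replicate 1 of Ctrl (adjusted P = 0.0711) or of cKO sPre-B (0.14; range over the alternatives 0.0026 to 0.14). It rose with stage 1.76-fold under the cKO label (Log2FC 0.81, SE 0.12, adjusted P = 0.00037) and 1.30-fold in Ctrl cells (Log2FC 0.38, SE 0.12, adjusted P = 0.0211), the latter lost without replicate 1 of either Ctrl group (adjusted P = 0.0702 and 0.0597; lowest over the alternatives 0.00685).

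*Xrcc4* (Entrez 108138, chromosome 13 at 89848914 to 90089608), whose product holds the ligase in place, had 9.20 and 10.7 CPM in Ctrl early LPre-B, 13.1 and 13.8 CPM in Ctrl sPre-B, 7.51 and 7.58 CPM in cKO early LPre-B and 11.1 CPM in both cKO sPre-B libraries. In each stage the cKO pair lay below the Ctrl pair. *Xrcc4* rose 1.35-fold in Ctrl cells (Log2FC 0.44, SE 0.13, adjusted P = 0.0164) and 1.48-fold under the cKO label (Log2FC 0.56, SE 0.13, adjusted P = 0.00464). The Ctrl call was lost without replicate 2 of Ctrl sPre-B (adjusted P = 0.0632; range over the alternatives 0.006 to 0.0632). The genotype difference in early LPre-B cells (Log2FC -0.40, SE 0.13, adjusted P = 0.0432) was close to the threshold, was lost under 11 alternatives (adjusted P from 0.036 to 0.275 over all alternatives), and in sPre-B cells was not called (Log2FC -0.28, SE 0.13, adjusted P = 0.129). *Tmem167*, on the opposite strand, shares 112 of its 1540 exon bases (7.27%).

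*Nhej1* (Entrez 75570, chromosome 1 at 74967346 to 75125226), which encodes XLF, was the lowest of the 10 genes in CPM per kb in both early LPre-B groups and was not called in any comparison by edgeR's quasi-likelihood test. It had 5.41 and 4.91 CPM in Ctrl early LPre-B, 5.37 and 4.72 CPM in Ctrl sPre-B, 3.76 and 4.71 CPM in cKO early LPre-B and 3.47 and 3.76 CPM in cKO sPre-B libraries. The Ctrl stages overlapped (Log2FC -0.03, SE 0.18, adjusted P = 0.888). Libraries labelled cKO lay below Ctrl in each stage, with a Log2FC of -0.29 (SE 0.18, adjusted P = 0.264) in early LPre-B and -0.48 (SE 0.18, adjusted P = 0.0715) in sPre-B cells, the latter called by DESeq2 (adjusted P = 0.043; range over the alternatives 0.043 to 0.251).

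**Figure D4:**
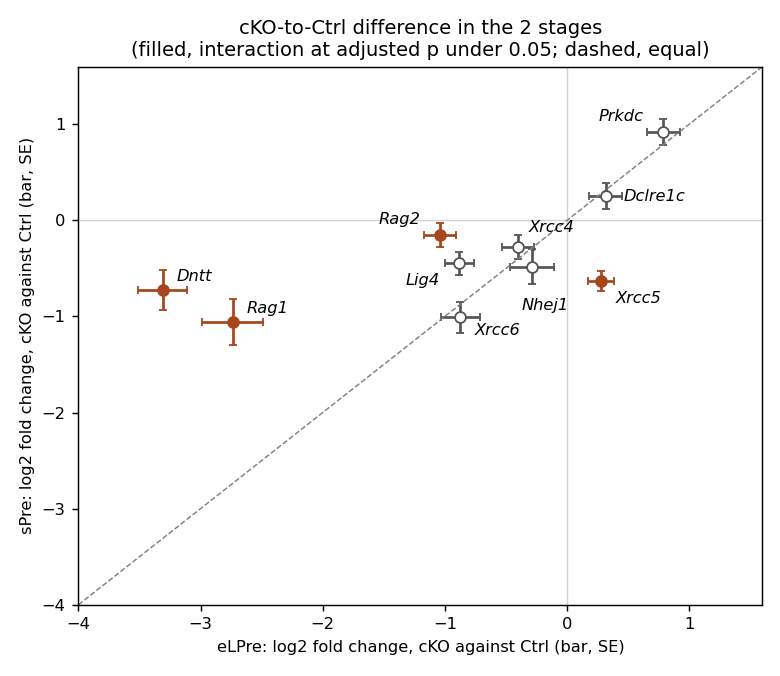
Log2 fold change of cKO against Ctrl in early LPre-B (eLPre, x axis) and sPre-B cells (y axis), with bars for SE, a dashed line where both are equal, and filled points where the interaction of stage and genotype had an adjusted p under 0.05. *Rag1*, *Rag2* and *Dntt* lie above the line, with interactions of 1.68, 0.89 and 2.59, and *Xrcc5* lies below it, at -0.91.

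Compared per kb of exon, so that genes of different length can be set side by side, *Xrcc6* was the highest of the 10 in both early LPre-B groups (mean 147 CPM per kb in Ctrl and 80.5 under the cKO label). In Ctrl early LPre-B cells *Dntt* (120.2) and *Rag1* (60.1, both CPM per kb) came next, and *Rag2* and *Lig4* (25.5 and 24.9) did not differ beyond their spread. In early LPre-B cells labelled cKO *Prkdc* was second (20.2 CPM per kb), while *Rag1* stood at 9 CPM per kb, above *Xrcc4* (4.90) and *Nhej1* (4.02) and not separated from *Dclre1c* (9.67) by the spread between libraries. In sPre-B cells *Rag1* led in both genotypes (489.7 and 235 CPM per kb), followed by *Xrcc6* (261 and 129.8) and *Rag2* (43.7 and 39.3). *Dntt* was then the lowest of the 10 (2.59 and 1.57 CPM per kb).

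Genes around the pathway were read as lists, given here by counts, to be read beside the shares of all genes called (29.1% higher and 31.1% lower with stage in Ctrl cells, 31.6% and 31.1% under the cKO label). Among 16 transcription factors known to act on *Rag* genes in the B lineage, 10 rose and 2 fell from early LPre-B to sPre-B in Ctrl cells, and 10 rose and 2 fell under the cKO label, with medians of 0.54 and 0.50. *Foxo1*, an activator of *Rag* transcription, had 231 and 234 CPM in Ctrl early LPre-B, 682 and 667 in Ctrl sPre-B, 114 and 119.6 in cKO early LPre-B and 533 and 503 in cKO sPre-B libraries. Its order of groups was that of *Rag1*, as it also was for *Foxo3*, *Foxp1* and *Satb1* of this list and for *Traf6* and *Iftap*. *Foxo1* had a Log2FC of 2.15 (SE 0.10, adjusted P = 1.58e-06) for stage under the cKO label. *Gfi1b*, a repressor of *Rag* transcription, fell 6.54-fold in Ctrl cells (Log2FC -2.71, SE 0.17, adjusted P = 4.49e-06) and 6.33-fold under the cKO label (Log2FC -2.66, SE 0.17, adjusted P = 4.62e-06). *Ikzf3*, which encodes Aiolos, rose (Log2FC 1.76 and 2.40, SE 0.12 in both), and *Lef1* fell (Log2FC -2.30 in Ctrl, SE 0.16, and -1.36 under the cKO label, SE 0.15).

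Of these 16 factors 10 were lower under the cKO label in early LPre-B cells and 1 was higher, beside 16.9% and 14.5% of all genes, with a median Log2FC of -0.44. The likelihood-ratio test and DESeq2 each called 3 higher in place of 1. *Lef1* (Log2FC -1.02, SE 0.15, adjusted P = 0.00167) and *Foxo1* (Log2FC -0.998, SE 0.10, adjusted P = 0.00023) were lower and the repressor *Gfi1b* was higher (Log2FC 0.79, SE 0.16, adjusted P = 0.00667). The count in sPre-B cells was 8 lower and 3 higher, at a median of -0.32, beside 14.9% and 19.8% of all genes, so that the higher genes were near their background share. *Myb* (Log2FC -0.90, SE 0.15, adjusted P = 0.00219) and *Ebf1* (Log2FC -0.80, SE 0.14, adjusted P = 0.00265), both B-lineage regulators, were lower, and *Gfi1b* was again higher (Log2FC 0.83, SE 0.17, adjusted P = 0.00587).

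The 9 genes of RAG cofactors and turnover include the DNA-bending proteins *Hmgb1* and *Hmgb2*, which assist the cut, and the cyclin A and SKP2 genes that act in the removal of RAG2 protein during division. Of these 8 fell with stage in each genotype, with medians of -1.93 in Ctrl and -1.91 under the cKO label. *Skp2* (Log2FC -3.32, SE 0.21, adjusted P = 4.26e-06), *Ccna2* (Log2FC -3.17) and *Cks1b* (Log2FC -3.12) led in Ctrl cells, and under the cKO label the same 3 genes had a Log2FC of -2.41, -2.18 and -2.44. *Rag1* and *Rag2* thus rose between stages in which these genes fell. *Mki67*, a marker of dividing cells, fell with them from 4460 and 4927 to 717 and 360 CPM in Ctrl cells and from 2906 and 3071 to 661 and 749 CPM under the cKO label, and the part of division in the changes of the 10 genes was not tested. Of the 9 genes 3 were lower in early LPre-B cells under the cKO label, beside 16.9% of all genes, namely *Hmgb2* (Log2FC -0.91, SE 0.20, adjusted P = 0.00961), *Hmgb1* (Log2FC -0.58, SE 0.14, adjusted P = 0.0127) and *Cdk2* (Log2FC -0.36, SE 0.08, adjusted P = 0.0119). In sPre-B cells 1 was higher and 1 lower, no more than the 19.8% and 14.9% of all genes, *Skp2* being higher (Log2FC 0.71, SE 0.20, adjusted P = 0.0229) and *Cdk2* lower (Log2FC -0.50, SE 0.08, adjusted P = 0.00243).

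Of 10 accessory end-joining factors, 4 rose and 5 fell with stage in each genotype. *Polm*, which encodes the polymerase of light chain joints, rose 5.64-fold in Ctrl cells, from 68.0 and 92.9 to 402 and 506 CPM (Log2FC 2.50, SE 0.19, adjusted P = 9.94e-06), and 8.41-fold under the cKO label (Log2FC 3.07, SE 0.19, adjusted P = 4.43e-06). *Poll*, for the related polymerase lambda, fell (Log2FC -2.25 in Ctrl, SE 0.23, and -1.42 under the cKO label, SE 0.22), so that of the related polymerase genes *Polm*, *Poll* and *Dntt* the first rose while the other two fell. *Tdp1*, which clears blocked ends, fell as well (Log2FC -1.56 in Ctrl and -0.94 under the cKO label, SE 0.08 in both).

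Between genotypes, of the 10 accessory factors in early LPre-B cells 5 were higher and 1 was lower under the cKO label, with a median of 0.42, and in sPre-B cells 8 were higher, with a median of 0.51, beside 14.5% and 19.8% of all genes called higher. *Paxx*, a paralog of XRCC4 and XLF that binds Ku, had 10.9 and 9.72 CPM in Ctrl and 44.95 and 48.3 CPM in cKO early LPre-B cells, 4.52-fold higher (Log2FC 2.18, SE 0.13, adjusted P = 3.79e-05). In sPre-B cells *Paxx* had 19.3 and 23.8 CPM in Ctrl and 43.3 and 47.3 CPM under the cKO label (Log2FC 1.08, SE 0.13, adjusted P = 0.000457). *Aplf*, an end-joining scaffold, was higher in both stages (Log2FC 0.62 and 0.68, SE 0.12 in both), *Poll* in sPre-B cells (Log2FC 1.20, SE 0.23), and *Cyren*, an inhibitor of end joining, was lower in the early LPre-B stage (Log2FC -0.65, SE 0.17, adjusted P = 0.0172).

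The DNA break response list had 14 genes, of which 13 were tested. With stage 10 fell and 1 rose in Ctrl cells and 9 fell and 1 rose under the cKO label. *Nbn* of the MRN complex fell 11.7-fold (Log2FC -3.54, SE 0.18), the histone gene *H2ax* 8.52-fold (Log2FC -3.09, SE 0.29) and the ubiquitin ligase gene *Rnf168* 5.38-fold (Log2FC -2.43, SE 0.11) in Ctrl cells, and these 3 led under the cKO label as well (Log2FC -3.19, -2.19 and -2.03). Between genotypes 6 were higher and 1 was lower under the cKO label in the early LPre-B stage, beside 14.5% and 16.9% of all genes, led by *Trp53bp1* (Log2FC 0.77, SE 0.08, adjusted P = 0.000338), *Mre11a* (Log2FC 0.76, SE 0.09, adjusted P = 0.000478) and *Rnf8* (Log2FC 0.51, SE 0.10, adjusted P = 0.00563). In sPre-B cells 6 were higher, beside 19.8% of all genes, led by *Nbn* (Log2FC 0.84, SE 0.17, adjusted P = 0.00626), *Rnf8* (Log2FC 0.63, SE 0.10) and *Mre11a* (Log2FC 0.61, SE 0.09).

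Most genes of the competing routes of repair fell with stage. Of 9 genes of alternative end joining and resection, 7 fell and 1 rose in Ctrl cells and 6 fell under the cKO label, with medians of -2.88 and -2.20, led by *Lig1* (Log2FC -4.31 and -3.25), *Exo1* (-4.21 and -3.21) and *Dna2* (-3.53 and -2.79). Between genotypes in early LPre-B cells 0 of the 9 were called by edgeR's quasi-likelihood or likelihood-ratio test or by DESeq2. This stands beside 31.3% of all genes called by the quasi-likelihood test, and 1 of the 9 had an unadjusted *P* under 0.05. In sPre-B cells 4 were higher and 1 was lower, beside 19.8% and 14.9% of all genes. The higher genes were led by *Polq*, the polymerase of this route (Log2FC 1.17, SE 0.22, adjusted P = 0.00457), *Exo1* (Log2FC 1.10, SE 0.20) and *Blm* (Log2FC 0.82, SE 0.14). Of 10 genes of homologous recombination, 8 fell and 1 rose in Ctrl cells and 9 fell and 1 rose under the cKO label, with medians of -3.06 and -2.18. *Xrcc2* fell in both genotypes (Log2FC -3.43 and -2.55), as did *Bard1* (-3.28 and -2.44) and *Rad54l* (-3.20 and -2.50). *Rad52* was 3.21-fold higher under the cKO label in early LPre-B cells (Log2FC 1.68, SE 0.09, adjusted P = 1.56e-05). It was the single gene of the 10 called there, beside 31.3% of all genes. In sPre-B cells 7 were higher, beside the same 19.8%, among them *Rad52* (Log2FC 1.22, SE 0.09) and *Rad51c* (Log2FC 1.13, SE 0.20).

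**Figure D5:**
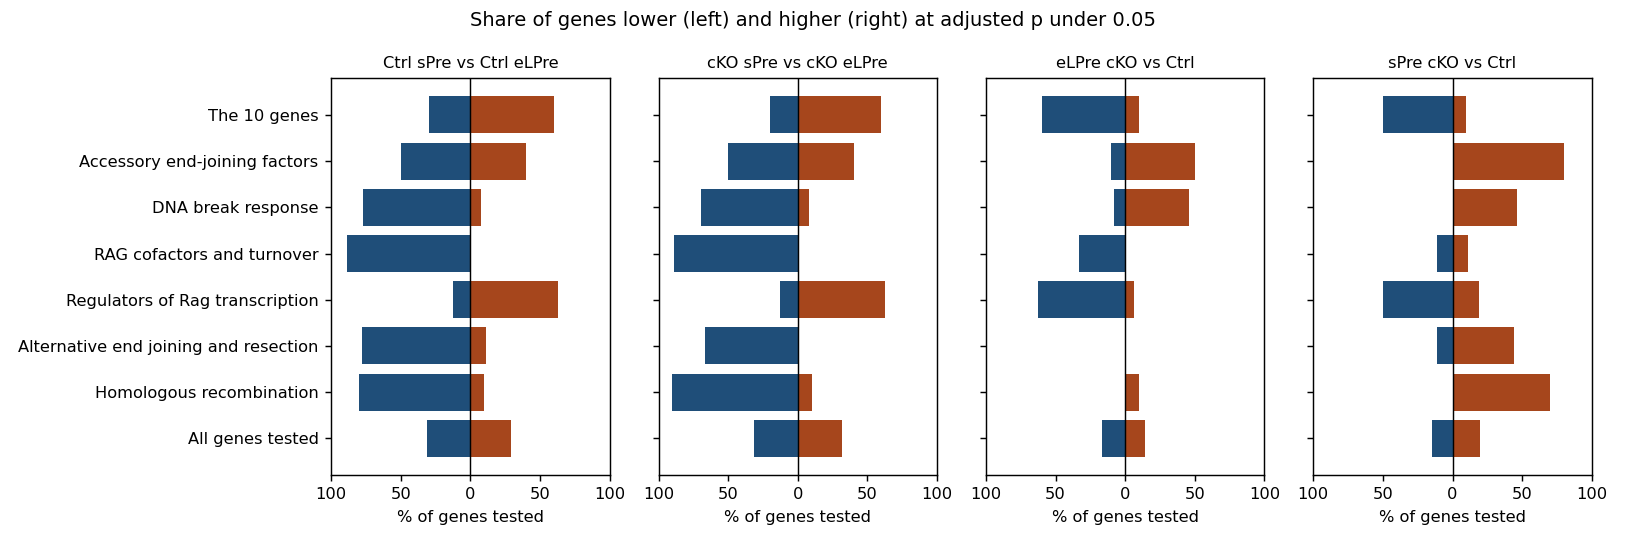
Percent of the genes tested in each list that were lower (blue, to the left) or higher (orange, to the right) at an adjusted p under 0.05, in the 4 comparisons, with all 17700 genes tested as the bottom bar. Under the cKO label the 10 genes and the regulators of *Rag* transcription lean to the left in both stages, while accessory end-joining and break response genes lean to the right.

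Markers also moved with the genotype comparison in sPre-B cells. The mature B cell markers *Fcer2a* and *Cr2* were both higher there, with a sum of 47.9 to 110 CPM against 14.7 to 15.6 CPM in Ctrl sPre-B cells, 7.86 to 10.6 CPM in Ctrl early LPre-B and 11.8 to 11.9 CPM in cKO early LPre-B cells. Of the 7 B-lineage markers 1 was called lower, *Cd79a* (Log2FC -2.08), whose locus carries Cre. *Vpreb1* (Log2FC 0.88) and *Igll1* (Log2FC 0.66) were called higher, and 4 were not called. The sum over the 7 was 3460 to 3930 CPM against 4730 to 5320 CPM, and *Cd79a* alone had means of 365 CPM under the cKO label and 1540 CPM in Ctrl sPre-B cells. Of the 3 plasmacytoid dendritic cell markers *Ccr9* was higher (Log2FC 1.504, adjusted P = 0.000699), with a sum of 10.6 to 13.6 CPM against 4.59 to 5.04 CPM. The erythroid *Hbb-bs* (Log2FC -1.51, adjusted P = 0.00838; sum of the 4 markers 6.12 to 10.3 CPM against 17.6 to 20.6 CPM) and *Itgam* (Log2FC -0.47, adjusted P = 0.0351) were lower. Their part in the differences of the 10 genes was not tested. Without replicate 2 of both Ctrl groups, which leaves libraries of a single sex by *Xist* and Y-linked counts, the counts of called genes became 2 higher in early LPre-B cells and 1 higher and 0 lower for the interaction.

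The genes whose profile over the 8 libraries was most like that of *Rag1* were *Steap4*, *Tent5a*, *Vsir*, *Cyp4f18* and *Atp1b1*, with a root mean square difference of log2 CPM of 0.231 to 0.535 after each profile was centred, beside a spread of 2.22 for *Rag1* itself. For *Rag2*, with a spread of 0.722, they were *Alyref2*, *Il16*, *Akap12*, *Clint1* and *Rab21*, at 0.11 to 0.15. For *Dntt*, with a spread of 2.38, they were *Emp1*, *Cracdl*, *Atp2b4*, *Tnfsf10* and *Uaca*, at 0.474 to 0.794. These were taken from 10441 named genes with a mean of at least 5 CPM. *Rag1* and *Rag2* differed from each other by 1.51 on this scale, and *Lig4* and *Xrcc4* were the closest pair among the 10 genes, at 0.221.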

How the data were processed

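RNA-seq libraries of sorted early LPre-B and sPre-B cells were read from the counts the authors deposited, 1 whole number per gene and library. Per the labels and the study's methods, reads were trimmed with Trim Galore, aligned to mm10 with HISAT2 as unstranded pairs and counted per gene with featureCounts (versions are not given in the sources used here). The kit was directional, but without strand in counting, reads of overlapping genes cannot be told apart.

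Of 27179 Entrez identifiers, 25275 were named from RefSeq (GRCm38.p6) and 1904 were not. Genes were filtered with filterByExpr by group, which left 17700, and TMM-normalized. One model of the 4 groups was fitted to all 8 libraries with edgeR 4.0.16 (R 4.3.3, limma 3.58.1) and tested by quasi-likelihood for 2 stage comparisons, 2 genotype comparisons and their interaction, with Benjamini-Hochberg adjustment over all genes and a threshold of 0.05. Log2FC are as fitted, and folds are ratios of group means of CPM. The code was tested on simulated data. Floors of 3 counts cover counting error only, while SD and SE carry the spread between libraries. The SE of a Log2FC was taken as its size divided by the square root of the quasi-likelihood F statistic. It rests on a spread estimated over the 4 groups together.

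The 10 genes and the lists around them (accessory end joining, break response, RAG cofactors and turnover, *Rag* regulators, alternative end joining, homologous recombination and cell markers) were chosen with earlier results of these data known. From each list up to 3 genes were named per comparison, those with the largest Log2FC in size among genes called, without overlap between the groups and with a count of 50 or more in both libraries of the group with the higher level. Certain genes that this rule names are not reported here. The locus neighbours *Iftap*, *Traf6*, *Prr5l* and *Commd9* and the 5 genes of most like profile were named besides. Alternatives were the likelihood-ratio test, DESeq2 1.42.0, its size factors, no filter, immunoglobulin genes left out, a replicate block over all libraries or within genotype, only the libraries compared, each library left out in turn and, added after the data were seen, both Ctrl replicates 2 left out. Where a group was left with 1 library, that library was assumed to vary like those of the other groups.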

Additional observations from a re-analysis of the deposited data

Results flagged for a closer look

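The cKO label had a different effect in the 2 stages on 4 of the 10 genes, by the interaction term in edgeR's quasi-likelihood test. The values are the Log2FC of cKO against Ctrl in sPre-B cells minus that in early LPre-B cells. For *Rag1* the difference was 1.68 (adjusted P = 0.0315), from a Log2FC of -2.74 in early LPre-B to -1.06 in sPre-B cells. For *Rag2* it was 0.89 (adjusted P = 0.0346), from -1.04 to -0.15. For *Dntt* it was 2.59 (adjusted P = 0.00433), from -3.31 to -0.72, and this gene was near its lowest level in sPre-B cells of either genotype. For *Xrcc5* it was -0.91 (adjusted P = 0.0182), from 0.28 to -0.63, and its fitted difference changed sign between the stages. The calls for *Rag1*, *Rag2* and *Xrcc5* did not hold when certain single libraries were left out, as given with each gene.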

How the results depend on the processing

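Of 34 calls over the 10 genes and 5 tests, 24 were kept under every alternative and 10 were lost under at least 1. Among 820 recomputed gene values 752 kept their direction and side of the threshold, 40 lost a call, 18 gained one and 10 changed sign, none of the last from a called value. The number of the 10 genes called higher in early LPre-B cells went from 1 to 2 with a replicate block, with only the 4 libraries compared and without both Ctrl replicates 2. For the interaction, the count without both Ctrl replicates 2 was 1 upward and 0 downward, against 3 and 1. With each library left out in turn, the counts ran from 5 to 6 higher and 2 to 3 lower for stage in Ctrl cells, 6 to 6 and 2 to 3 for stage in cKO cells, 1 to 2 and 5 to 6 for genotype in early LPre-B cells, 1 to 1 and 2 to 5 for genotype in sPre-B cells, and 1 to 3 and 0 to 1 for the interaction. The lowest count in sPre-B cells, 2 lower, came without replicate 1 of cKO sPre-B. The cause of these changes was not tested.

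The values that changed sign were small. The stage Log2FC of *Nhej1* in Ctrl cells ran from -0.064 to 0.118 over the fits with a library left out, and was 0.059 without both Ctrl replicates 2. The interaction ran over the fits with a library left out from -0.368 to 0.059 for *Xrcc6*, from -0.134 to 0.221 for *Prkdc*, from -0.351 to 0.041 for *Dclre1c* and from -0.076 to 0.159 for *Xrcc4*, which was -0.039 without both Ctrl replicates 2. No setting moved the median of all genes by over 0.1 on the log2 scale.

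Replicate numbers are shared by the groups, but the labels do not tie them to a litter, batch or day. Deviations of same-numbered libraries correlated at 0.506 and 0.374 in the stage comparisons and at 0.123 and 0.000958 in the genotype comparisons (17700 genes), a hint from the data that numbers go together across stages within a genotype, as does the sex of the Ctrl libraries, which follows their number. What the numbers mark is not given, and the fit reported has no block. With a replicate block the 10 genes gave 6 higher and 3 lower for stage in each genotype, 2 and 6 for genotype in early LPre-B cells, 1 and 5 in sPre-B cells, and 3 and 1 for the interaction. A replicate block within genotype gave the same counts for stage and interaction, and took the interaction calls over all genes from 467 upward and 283 downward to 1360 and 782 (598 and 354 with the plain block). The lowest count behind any value of the 10 genes was 256, for *Dntt* in replicate 1 of cKO sPre-B, and the number of libraries, 2 a group, limits the precision of each spread.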
